A study of Octopus bimaculoides with 16 samples.

Results

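In the octopus Octopus bimaculoides, the whole sucker cup was compared with the skin of the mantle. Genes were included when they reached 10 CPM (read counts scaled to 1000000 reads per library) in either tissue and lay at least 4-fold apart, after adding 1 CPM, between mantle skin and both whole sucker libraries. Of 15842 genes in the deposited table, 8347 reached 10 CPM in one of the tissues, and 256 of these met the 4-fold condition. The sucker was the higher tissue for 230 genes, or 2.76% of the genes tested, and the skin for 26, or 0.311%. These genes were selected on the very values compared, so their direction and size between sucker and skin are a description. Mantle skin had 1 library, so no test of the tissues is used for a result. A limma fit of the 2 sucker libraries against the skin library, whose spread comes from the sucker libraries alone, gave an adjusted p below 0.05 to 959 genes higher in sucker (11.5%) and 2726 higher in skin (32.7%). That balance is opposite to the one under the 4-fold condition. CPM is a share of a library's reads, and the 230 genes took 16.4% (automated) and 16.1% (manual) of sucker reads but 0.125% of skin reads. Over all tested genes the median log2 ratio of sucker to skin was -0.14. The part of these shares in the limma counts was not tested.

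The study sequenced messenger RNA from sensory organs and from tissues for comparison. Whole cups came from the arm labelled R1 and gave a library labelled automated and one labelled manual, words that the labels do not explain. Mantle skin, cells dissociated from sucker rims (a title naming 8 suckers), olfactory organ, eye, optic lobe and statocyst gave 1 library each. The labels state no treatment, genotype, age or number of animals, and do not say whether the sucker libraries are separate cups, so their spread may be technical. The 5 libraries from other tissues are given as context for the genes selected.

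An octopus sucker is a muscular cup with its own nerve supply, whose rim epithelium carries sensory cells that feel and taste what the arm touches. Mantle skin is also an epithelium over muscle and nerve, and it holds the pigment and reflecting cells of the animal's camouflage. The gene table gives no functional name to any of the 256 genes, so they are described by identifier, by level in each tissue and by their neighbours in the genome, and no role is stated for any of them. For the same reason neither tissue could be checked against marker genes.

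The libraries of whole sucker cup held 11830859 (automated) and 8293516 (manual) reads, and that of mantle skin 4782744. A single read was thus worth 0.0845, 0.121 and 0.209 CPM, and 10 CPM in skin rested on 47.8 reads. The libraries of the other tissues ranged from 5373482 reads in optic lobe to 36916825 in rim cells. Ratios of reads below pool both sucker libraries, have no pseudocount and carry exact 95% Clopper-Pearson intervals, which cover counting error only.

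Most genes stood close together in sucker and skin. Of the 8347 genes, 7628 (91.4%) lay within 2-fold of skin in both sucker libraries, and the median log2 ratio of sucker to skin was -0.14. The 230 genes higher in sucker had a median log2 ratio of 4.03, with quartiles of 2.69 and 6.71, taking for each gene the sucker library nearer to skin. The ratio was at least 16-fold for 117 of them and at least 64-fold for 72. The 26 genes higher in skin had a median of -2.58, and 2 of them reached 16-fold. In a bulk library, a lower level through fewer cells of a type and through less RNA per cell cannot be told apart.

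**Figure D1:**
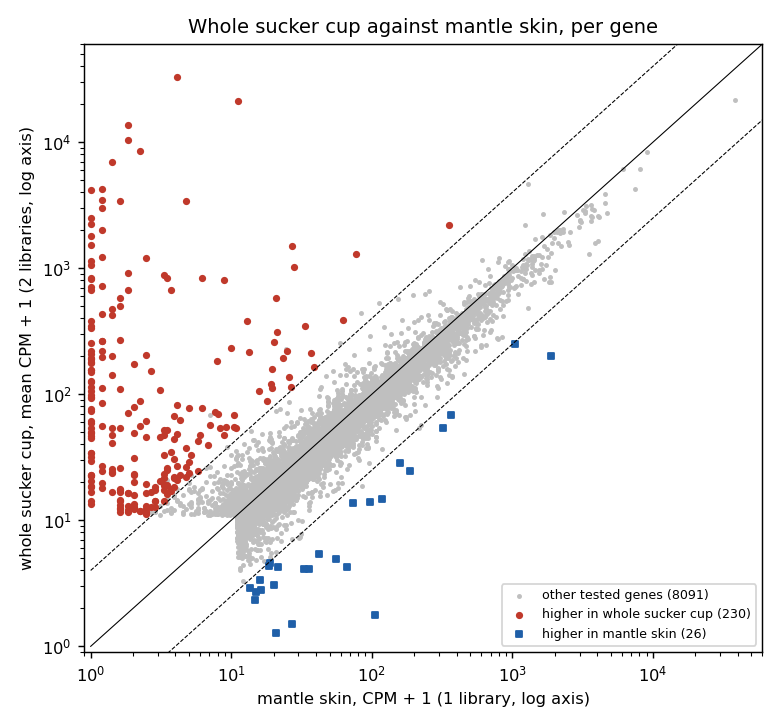
Each point is a gene, with mantle skin on the horizontal axis and the mean of the 2 whole sucker libraries on the vertical axis, both as CPM + 1 on log axes; the solid line marks equal values and the dashed lines 4-fold. The 230 genes higher in sucker reach far to the upper left, where skin is near 0, while the 26 genes higher in skin lie nearer their line.

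Many of the genes higher in sucker were near the detection limit in skin, which the selection favours. Skin lay under 1 CPM for 110 of the 230 and reached 10 CPM for 23. Over all 8347 tested genes these counts were 110 (1.32%) and 7872 (94.3%). Every tested gene under 1 CPM in skin was thus among the 230, as was every one without a read there. By reads, 53 of the 230 had none in skin, a count of 0 that allows up to 0.771 CPM in this library, while 95 had 1 to 10 reads and 82 had more. Together the 230 genes made up 16.4% of reads in the automated library, 16.1% in the manual library and 0.125% in skin (95% Wilson interval 0.122 to 0.129%). A few genes carried much of this, since the 3 with the most reads made up 41.7% of the set's reads in the automated library. The sucker libraries differed from each other by a median of 1.05-fold over the 230 genes. The widest gap was that of LOC106872464, with 160 CPM (automated) and 534 CPM (manual) against 32.2 CPM in skin.

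The 10 largest ratios in favour of sucker all belonged to genes with at most 15 reads in skin. LOC106882233 had 33187 CPM (automated) and 32374 CPM (manual), and skin had 3.14 CPM (15 reads). Rim cells had 1764 CPM of it, and each of the other 4 tissues lay under 1 CPM. It was 10475-fold higher in sucker than in skin by reads (6351 to 18715), and it took more reads than any other gene of either sucker library. Next came LOC106869022, with 13722 and 13687 CPM in the sucker libraries, 0.836 CPM (4 reads) in skin and 8569 CPM in rim cells. It had no read in olfactory organ, eye or statocyst and 0.558 CPM in optic lobe. Both genes were thus far higher in the sucker libraries and in rim cells than elsewhere. Rim cells lay far below the cup for LOC106882233 and nearer to it for LOC106869022.

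The others among these 10 divided by their level in rim cells. LOC106873015 had 4238 and 4150 CPM in the sucker libraries and 6212 CPM in rim cells. LOC106880275 had 3024 and 2989 CPM in the sucker libraries and 2824 CPM in rim cells, and LOC106882063 had 2577 and 2457 CPM with 2343 CPM in rim cells. These 3 genes were about as high in rim cells as in the whole cup, or higher, and had at most 1 read in skin. LOC106877637, in contrast, had 7281 and 6722 CPM in the sucker libraries, 183 CPM in rim cells and 0.418 CPM in skin. LOC106871109 had 3447 and 3510 CPM in the sucker libraries, 198 CPM in rim cells and 0.209 CPM in skin. Rim cells were far below the cup for this pair, and all 5 genes lay under 1 CPM in olfactory organ, eye, optic lobe and statocyst. Where skin had no read, the exact 95% lower limit of the ratio of sucker to skin was 5448 for LOC106873015 and 3277 for LOC106882063. With skin set to a floor of 3 reads, the ratios were 6699 and 4030. Among the 5 of the 230 genes with the most reads in the sucker libraries, LOC106881862 was the one with the most reads in skin. It had 21548 and 20622 CPM in the sucker libraries and 10.2 CPM (49 reads) in skin, a ratio of 2066 (1563 to 2793), and 2093 CPM in rim cells and 10.02 CPM in statocyst.

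**Figure D2:**
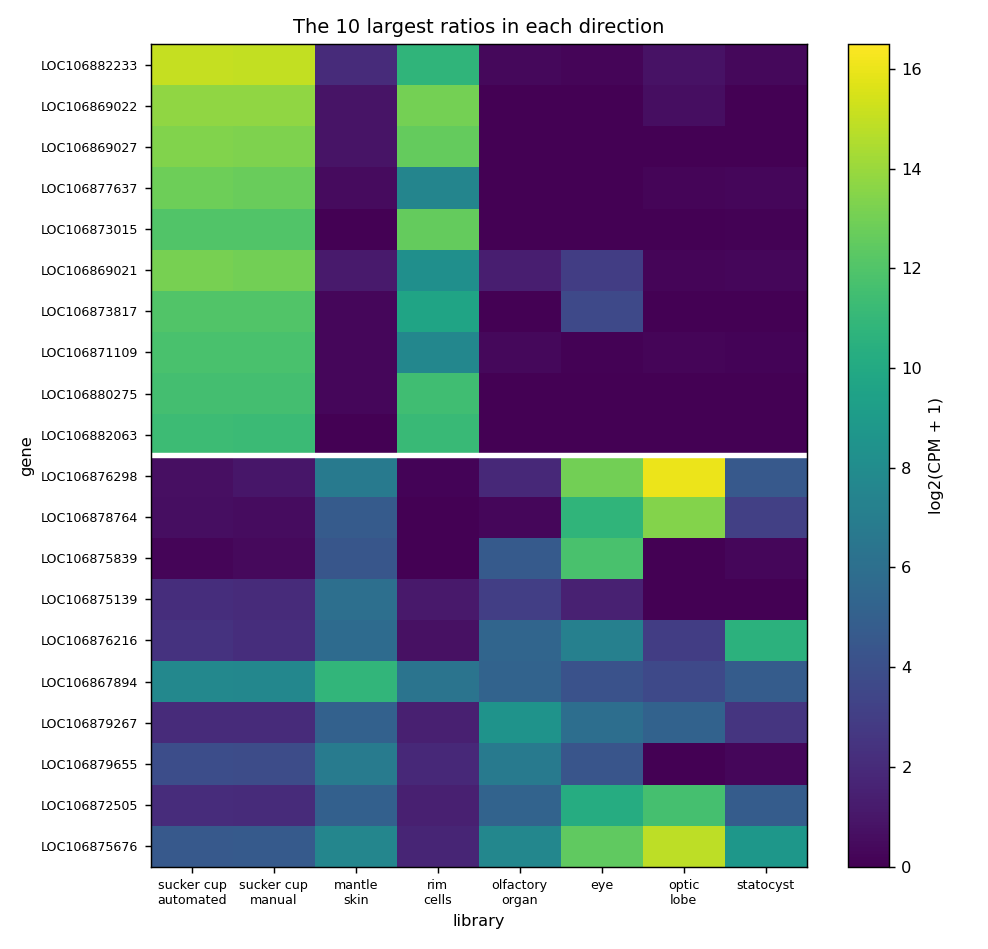
Rows are the 10 genes with the largest ratio in each direction, those higher in sucker above the white line and those higher in skin below it; columns are the 8 libraries, and colour is log2(CPM + 1). The upper genes are bright in both sucker libraries and, to differing degrees, in rim cells, and several lower genes are brightest in optic lobe, eye or statocyst rather than in skin.

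Rim cells, which the selection did not use, had at least 10 CPM of 195 of the 230 genes (84.8%), against 91.4% of all genes tested. Because the 230 genes were chosen for being high in the whole cup, a lower value in any further library is favoured by the choice. Rim cells lay within 2-fold of both sucker libraries for 103 of the 230 (44.8%), against 83.4% of all tested genes. They were at least 4-fold below both for 50 (21.7%), against 3.39% of all tested, and at least 4-fold above both for 7 (3.04%), against 0.539%. The 50 genes lower in rim cells made up 9.31% (automated) and 9.03% (manual) of sucker reads, but 0.639% of those of rim cells. The 103 genes within 2-fold took 6.11% and 6.06% in the sucker libraries and 5.09% in rim cells.

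The 7 genes at least 4-fold higher in rim cells than in either whole cup library were examined individually, a choice made after their values were seen. They were LOC106868721, LOC106876533, LOC106880972, LOC106881071, LOC106882097, LOC106882846 and LOC106882847. LOC106882097 had 379 and 310 CPM in the sucker libraries, 2448 CPM in rim cells and no read in skin. LOC106882847 had 160 and 138 CPM in the sucker libraries, 1593 CPM in rim cells and no read in skin. LOC106881071 had 123 and 101 CPM in the sucker libraries, 1015 CPM in rim cells and no read in skin. All 3 lay under 1 CPM in olfactory organ, eye, optic lobe and statocyst, as did 3 of the remaining 4. The exception was LOC106880972, with 85.0 CPM in eye beside 214.5 CPM in rim cells, 51.4 and 51.1 CPM in the sucker libraries and 2.30 CPM in skin.

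At the other end, 6 of the 230 genes lay under 1 CPM in rim cells, and 3 of them are described, again picked by value. LOC106872736 had 61.9 and 58.7 CPM in the sucker libraries, 0.0542 CPM in rim cells and no read in any of the other 5 libraries. LOC106881506 had 723 and 717 CPM in the sucker libraries, 0.244 CPM in rim cells, 0.209 CPM in skin and 33.5 CPM in eye. LOC106882868 had 56.8 and 63.3 CPM in the sucker libraries and 0.840 CPM in rim cells and 1.46 CPM in skin, but 197 CPM in eye and 55.5 CPM in optic lobe. These 3 genes were thus far lower in dissociated rim cells and in mantle skin than in whole cups. The rim library differed from the cups in the part taken and in dissociation, whose parts in these values were not tested.

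Olfactory organ, eye, optic lobe and statocyst, also outside the selection, separated the 230 genes into 3 groups. All 4 of these tissues lay under 1 CPM for 59 genes (25.7%), against 1.44% of all tested genes. The 59 made up 10.004% (automated) and 9.76% (manual) of sucker reads and 4.42% of those of rim cells. Rim cells had at least 10 CPM of 52 of the 59, and of 54 of the 120 such genes among all tested (45%). These 120 include the 59, and the 54 include the 52. For another 59 genes the highest of the 4 tissues lay between 1 and 10 CPM. The remaining 112 (48.7%) reached 10 CPM in at least 1 of the 4, against 95.9% of all tested genes. Their median log2 ratio of sucker to skin was 2.995, against 7.11 for the 59 genes under 1 CPM. For 75 of the 230 (32.6%), one of the 4 tissues was as high as the mean of the sucker libraries or higher, against 86.0% of all tested genes. Skin was low for these 75, but sucker was not the highest tissue.

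**Figure D3:**
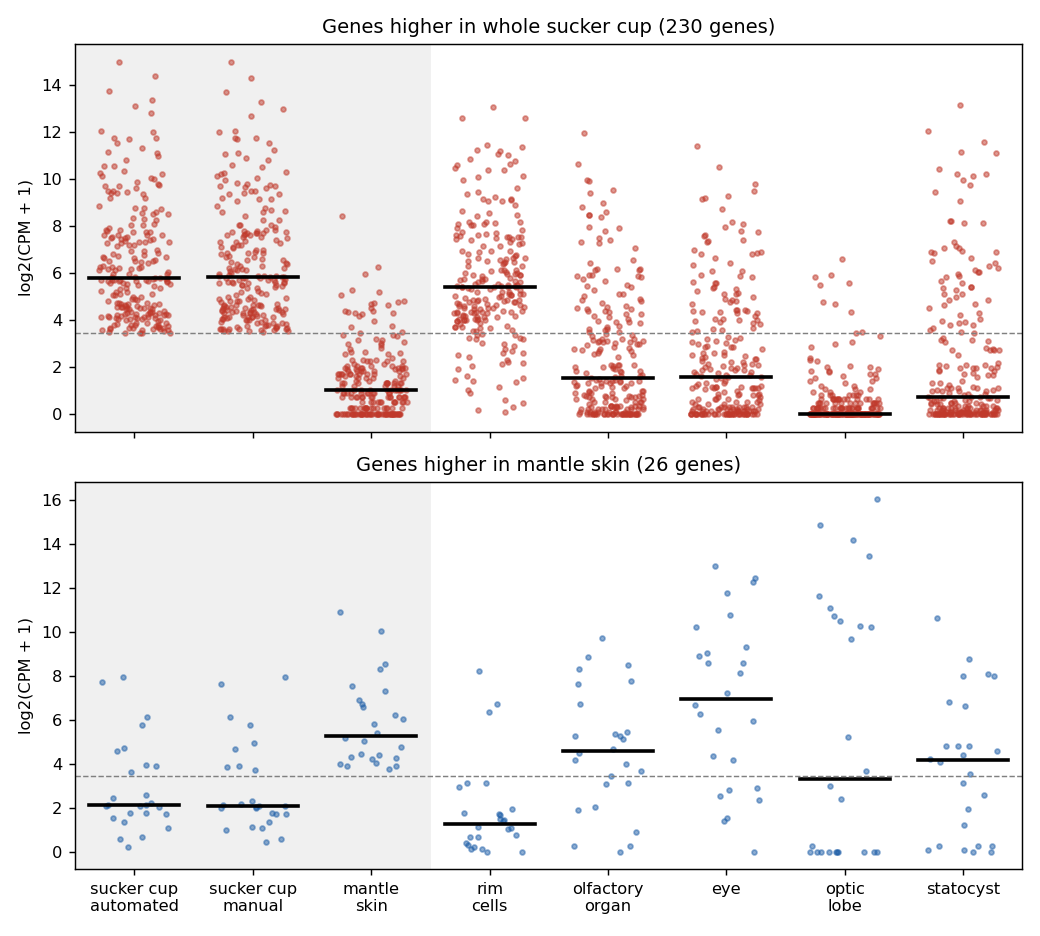
Points are genes, the vertical axis is log2(CPM + 1), black bars are medians over genes and the dashed line marks 10 CPM; the shaded columns are the 3 libraries that selected the genes. Genes higher in sucker have medians of 54.3 and 56.1 CPM in the sucker libraries, 41.2 CPM in rim cells and 0 in optic lobe, and genes higher in skin have a median of 124 CPM in eye, above the 37.7 CPM of skin itself.

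Among the 112 genes, statocyst was the highest of the 4 tissues for 38.4% and olfactory organ for 34.8%, close to the 35.7% and 36.4% of all tested genes that reached 10 CPM in one of the 4. Eye was the highest for 26 of the 112 (23.2%), against 9.78% of all, and optic lobe for 4 (3.57%), against 18.1%. The 230 genes took 3.30% of the reads of statocyst (3.29 to 3.31%), 1.49% of olfactory organ, 1.25% of eye and 0.0503% of optic lobe. Optic lobe had at least 10 CPM of 10 of the 230 genes (4.35%), against 67.4% of all tested, and no read of 126, against 638 of all 8347. At 10 CPM or more, eye and statocyst shared 45 genes, or 64.3% of the 70 in eye and 72.6% of the 62 in statocyst. Over all tested genes these shares were higher, at 90.5% and 93.8%. The genes named next were picked after their values in these tissues were seen. LOC106881140 had 54.2 and 54.1 CPM in the sucker libraries, 9.41 CPM (45 reads) in skin and 9144 CPM in statocyst. LOC106873798 had 1532 and 1482 CPM in the sucker libraries, 26.1 CPM in skin, 4308 CPM in statocyst, 2702 CPM in eye and 1597 CPM in olfactory organ. LOC106882236 had 1041 and 999 CPM in the sucker libraries, 26.8 CPM in skin and 4032 CPM in olfactory organ, but 0.0817 CPM in eye. Its ratio of sucker to skin was 38.3 (32.2 to 45.9). Optic lobe had under 1 CPM of each of these 3 genes. LOC106876066 had 195 and 198 CPM in the sucker libraries, 95.4 CPM in rim cells, 0.209 CPM (1 read) in skin and 720 CPM in eye, and no read in olfactory organ, optic lobe or statocyst.

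Genes higher in sucker often lay beside each other in the genome. The order of genes was taken from the RefSeq table of the assembly ASM119413v2. The authors' genome build is unknown here, and no positions are therefore stated. The table placed 197 of the 230 genes, and 46 of these (23.4%) had another of the 230 as the nearest measured neighbour on one side or the other. Among the other 7495 tested genes that were placed, 184 (2.45%) had one of the 230 beside them. Of the 26 genes higher in skin, 4 (15.4%) had another of the 26 beside them, as did 22 of the other 7666 (0.287%). The 46 genes higher in sucker formed 14 pairs, 3 runs of 3, 1 run of 4 and 1 run of 5. No sequences were used here, so whether neighbours are similar copies among which reads could be split was not tested.

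The 5 runs of 3 or more genes differed in the tissues they shared. The run of 5 comprised LOC106877958, LOC106877965, LOC106877957, LOC106877966 and LOC106873817. LOC106873817 had 4196 and 4218 CPM in the sucker libraries, 789 CPM in rim cells, 11.4 CPM in eye and 1 read in skin. LOC106877965 had 662 and 676 CPM in the sucker libraries and 1.03 CPM in rim cells, and LOC106877958 had 86.0 and 82.5 CPM in the sucker libraries and 92.3 CPM in rim cells. A lower level in skin is required by the selection, and neighbours of this run differed in rim cells. Levels in rim cells also differed within the run of LOC106869022, LOC106869027 and LOC106869021. LOC106869027 had 10661 and 10115 CPM in the sucker libraries and 6316 CPM in rim cells. LOC106869021 had 8825 and 8252 CPM in the sucker libraries and 292.5 CPM in rim cells. Both had at most 6 reads in skin.

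The run of 4, made of LOC106877401, LOC106877400, LOC106877398 and LOC106871150, was the one run in which all genes were highest in olfactory organ. LOC106877398 had 229 and 231 CPM in the sucker libraries, 8.99 CPM in skin, 66.4 CPM in rim cells and 1004 CPM in olfactory organ. LOC106871150 had 78.4 and 74.4 CPM in the sucker libraries, 3.97 CPM in skin, 26.8 CPM in rim cells and 393 CPM in olfactory organ. Each of the 4 genes fell in the same order, from olfactory organ through the sucker libraries and rim cells to skin, and had no read in optic lobe. The run of LOC106877137, LOC106868777 and LOC106868776 and that of LOC106882063, LOC106883992 and LOC106883990 lay under 10 CPM in skin and under 4 CPM in olfactory organ, eye, optic lobe and statocyst. In the former run, LOC106868777 had 879 and 887 CPM in the sucker libraries, 1112 CPM in rim cells and 2.30 CPM in skin. In the latter, LOC106883992 had 18.8 and 16.8 CPM in the sucker libraries, 1.57 CPM in rim cells and no read in the other 5 libraries.

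**Figure D4:**
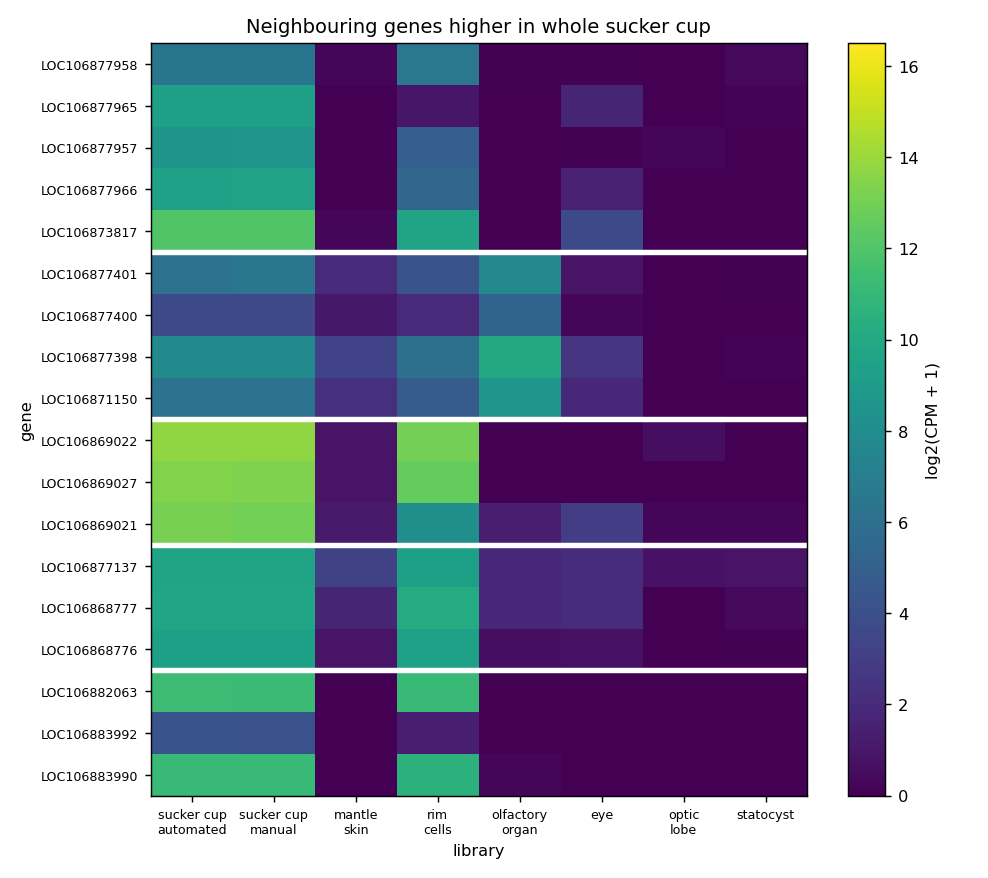
Rows are the 18 genes of the 5 runs of 3 or more neighbouring genes higher in sucker, with white lines between runs; columns are the 8 libraries, and colour is log2(CPM + 1). The run of 4 genes is brightest in olfactory organ, and in rim cells neighbours differ within the run of 5 and within 2 of the runs of 3.

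Of the 14 pairs, 3 were picked after their values were seen to show how neighbours stood in rim cells. LOC106881071 and LOC106882846 adjoin each other and were both among the 7 genes higher in rim cells. LOC106882846 had 25.3 and 21.9 CPM in the sucker libraries, 290.2 CPM in rim cells and 0.209 CPM in skin. The other picked pairs divided in rim cells, and how many of the 14 did so was not counted. LOC106871108, the neighbour of LOC106871109, had 2040 and 1948 CPM in the sucker libraries, 1414 CPM in rim cells and 0.209 CPM in skin. LOC106873005, the neighbour of LOC106873015, had 44.6 and 47.3 CPM in the sucker libraries, 0.135 CPM in rim cells and no read in skin.

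The gene with the most reads in skin among the 230 was LOC106869024. It had 2250 and 2145 CPM in the sucker libraries, 2167 CPM in rim cells, 350.4 CPM (1676 reads) in skin and 361 CPM in olfactory organ. Optic lobe had 0.186 CPM of it and statocyst no read. Skin and olfactory organ were thus alike in level, well below sucker and rim cells and above the remaining tissues.

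The 26 genes higher in skin were fewer and closer to sucker in level. They made up 0.476% of skin reads (0.470 to 0.482%), and 0.0704% (automated) and 0.0697% (manual) of sucker reads. Skin was the highest of all 7 tissues for 10 of the 26, and optic lobe for 11. Olfactory organ and statocyst were the highest for 2 each and eye for 1. The share with optic lobe or eye as highest tissue, 46.2%, depended on the limits and was 25% with a floor of 50 CPM and 28.7% at 2-fold. Over all tested genes, optic lobe was the highest tissue for 15.0%, eye for 7.06%, skin for 12.4%, olfactory organ for 20.3% and statocyst for 29.4%.

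Of the 10 genes with their highest level in skin, LOC106867894 had the most reads there, with 1891 CPM in skin, 206 and 194 CPM in the sucker libraries and 81.2 CPM in rim cells. Its ratio of skin to sucker was 9.41 (9.07 to 9.77), and olfactory organ, eye, optic lobe and statocyst had between 11.7 and 36.8 CPM. LOC106879616 had 1035 CPM in skin, 247 and 248 CPM in the sucker libraries and 456 CPM in olfactory organ. Skin exceeded sucker 4.18 times (4.02 to 4.35) in reads, just past the condition. LOC106870437 had 365 CPM in skin, 67.8 and 68.1 CPM in the sucker libraries and 292 CPM in rim cells, so that rim cells stood nearer to skin than to the whole cup. LOC106875139 had 65.0 CPM in skin, 3.38 and 3.13 CPM in the sucker libraries and no read in optic lobe or statocyst, a ratio of 19.8 (15.2 to 26.3). Both sucker libraries held reads of all 10 genes, as they did of every tested gene. Optic lobe had no read of 8 of the 10, against 638 of all 8347 tested genes. Being highest in skin, the 10 are by definition lower in optic lobe. The neighbours LOC106879655 and LOC106883121 had 117 and 41.0 CPM in skin and 105 and 34.4 CPM in olfactory organ. LOC106879655 had 13.9 and 13.5 CPM in the sucker libraries, LOC106883121 had 4.90 and 3.98 CPM, and neither had a read in optic lobe.

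The 11 genes with optic lobe as their highest tissue were low in skin in comparison. LOC106876298, the gene with the largest ratio of skin to sucker, had 104 CPM (498 reads) in skin, 0.592 and 0.965 CPM in the sucker libraries and 0.108 CPM in rim cells. Optic lobe had 65721 CPM of it and eye 7983 CPM. Its ratio of skin to sucker was 140 (83.9 to 251), and its level in skin was 0.158% of that in optic lobe. LOC106878764 had 26.1 CPM in skin, 0.507 and 0.482 CPM in the sucker libraries and 11249 CPM in optic lobe. LOC106875676 had 186 CPM in skin, 23.2 and 24.2 CPM in the sucker libraries, 196 CPM in olfactory organ and 29735 CPM in optic lobe. Over the 11 genes, skin reached between 0.158% and 2.53% of the optic lobe level, with a median of 0.919%. At 10 CPM or more were 11 of the 11 in eye and 10 in statocyst, where 83.2% and 80.2% of all tested genes also lay. In olfactory organ 7 of the 11 reached 10 CPM, against 91.6% of all tested, and in rim cells none did, against 91.4%. LOC106875839 had eye as its highest tissue, with 3467 CPM, and no read in optic lobe. It had 19.9 CPM (95 reads) in skin, 24.7 CPM in olfactory organ and 0.169 and 0.362 CPM in the sucker libraries.

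Genes high in optic lobe were also counted, under a definition set after these values were seen. At least 1000 CPM in optic lobe and no more than 1% of that level in rim cells gave 25 genes. Rim cells come from suckers, so this condition favours genes low in sucker, and the values below are a description. Their summed level was 180816 CPM in optic lobe, 1137 CPM in skin, 304 CPM (automated) and 315 CPM (manual) in sucker, 178 CPM in rim cells and 2530 CPM in olfactory organ. Skin was above both sucker libraries for 24 of the 25 and below both for 1, and 10 of them were among the 26 genes already selected as higher in skin. How many of all tested genes had skin above both was not counted. Their median log2 ratio of sucker to skin was -0.14, also on the side of skin. The sum over the 25 genes reached 0.629% of its optic lobe level in skin and 0.171% in sucker. The same choice made with eye gave 44 genes, of which skin was above both sucker libraries for 19 and below both for 10. Their summed level was 8762 CPM in skin and 3912 CPM (automated) and 3919 CPM (manual) in sucker. Of these 44, 6 were among the genes selected as higher in skin and 0 among those higher in sucker. With statocyst the same choice gave 11 genes, with skin above both for 2 and below both for 8. Of these 11, 1 was among the genes selected as higher in skin and 1 among those higher in sucker. At 10 CPM or more in sucker or skin were 24 of the 25 optic lobe genes, 12 of the 44 eye genes and 3 of the 11 statocyst genes. Most of the eye and statocyst genes were thus under 10 CPM, where few reads decide the side. These splits therefore cannot be set against each other. The part of nerve tissue in the difference between skin and sucker was not tested.

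At the edge of the selection, values lay close to the condition. Just inside it, LOC106884422 had 10.99 and 12.4 CPM in the sucker libraries and 1.88 CPM (9 reads) in skin, and LOC106870717 had 14.4 and 12.3 CPM against 2.30 CPM. Just outside, LOC106868623 had 18.7 and 19.1 CPM against 3.97 CPM and LOC106872269 had 14.5 and 15.2 CPM against 2.93 CPM. In the other direction, LOC106881785 had 12.5 CPM in skin against 1.52 and 2.29 CPM and LOC106879028 had 17.98 CPM against 3.72 and 3.50 CPM, both just inside. LOC106876762 had 29.9 CPM in skin against 5.92 and 6.75 CPM, and LOC106873475 had 217 CPM against 54.4 and 50.5 CPM, both just outside.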

How the data were processed

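Tissue was dissected manually and RNA isolated with phenol and chloroform before library construction with the Kapa mRNA HyperPlus kit, per the labels' protocols. Trimming software (Trim Galore) and a transcript quantifier (kallisto) are listed in the submitters' processing notes. The sources used here give no versions or genome build, and no account of how the 2 lanes of each library, or the transcripts of a gene, were merged. The deposited values are log2(CPM + 1), a unit read from the deposited columns. Inverted, each column sums to 1000000 and 100% of values are whole multiples of its smallest (tolerance 0.01 reads), so reads per gene were recovered. Whether kallisto's estimates had been rounded is unknown.

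The whole sucker cup entered the 10 CPM floor as the mean of its 2 libraries, and both had to pass 4-fold with a pseudocount of 1 CPM. CPM has no length term, so an order of genes by reads is not one by transcript abundance. Python 3.11.15, pandas 2.3.3, scipy 1.17.1 and limma 3.58.1 in R 4.3.3 (adjusted p by Benjamini-Hochberg) were used, and scripts were tested on simulated data. Of the 15842 identifiers, 14305 were found in the RefSeq table. Planned protein signatures and name lists, including reflectin and Cys-loop receptors, were not applied, since the table used here holds neither sequences nor product names. Named by rule are the genes with the 10 largest ratios, those with the 5 highest read counts and those nearest the threshold in each direction. All of them are protein-coding in the RefSeq table, and only some are described. Others were picked by value, as stated. The genes, comparison and lists were chosen with earlier results of these data known.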

Additional observations from a re-analysis of the deposited data

How the results depend on the processing

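The counts of 230 genes higher in sucker and 26 higher in skin rest on the chosen limits. With the floor raised to 50 CPM, where fewer genes enter, they were 124 and 12. A threshold of 2-fold gave 382 and 202, and one of 8-fold 151 and 7. Adding 5 CPM in place of 1 left 17 genes higher in skin and 161 higher in sucker. Leaving out either sucker library gave 235 to 252 genes higher in sucker and 29 higher in skin both times. Within 1.5 times of the reported counts were those with a pseudocount of 0.1 CPM (246 and 32), no floor (303 and 29), thinning to the skin depth (232 and 23), counting bounds of at least 4-fold in both sucker libraries (202 and 20) and median-of-ratios size factors (248 and 22). These factors scaled sucker over skin up by 0.18 (automated) and 0.16 (manual) on the log2 scale before the pseudocount was added, and the ratio of LOC106882233 went from 12.93 to 13.06.

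Requiring an adjusted p below 0.05 from limma beside the 4-fold condition left 230 and 26 genes, which the selection of these genes on the same values favours, so it supports nothing. Without the 4-fold condition limma gave 959 and 2726. Its spread comes from the sucker libraries only, the skin library being assumed to vary like them, and does not measure variation between skins or animals. None of the 32 genes named by rule changed direction under the settings that apply to single genes. LOC106879616, with 1035 CPM in skin, fell below the 4-fold condition at size factors (log2 ratio -1.88) and on thinning (-1.99), and the other changes of side were among the 8 genes nearest to the threshold. Optic lobe or eye was the highest tissue for 46.2% of genes higher in skin, for 25% when the floor was 50 CPM and for 28.7% at 2-fold. Among all tested genes, optic lobe was the highest for 15.0% and eye for 7.06%. No paired analysis was possible because the comparison has 1 skin library and its result comes from no test. Depth limits the levels of genes near 0 in skin, where 1 read is 0.209 CPM.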
